A study of Homo sapiens with 12 samples.

Results

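Expression and m6A peaks were described for 8 genes of the caspase cascade, CASP8, CASP9, CASP6, CASP4, APAF1, CYCS, XIAP and DIABLO, in A375 cells with and without knockdown of ALKBH5. The genes were chosen by name, and all 8 were found among the 29696 genes of the expression table. They held 24 of the 46039 m6A peaks listed for the knockdown cells and 23 of the 44304 peaks listed for the control cells.

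Caspases are proteases that are made as inactive precursors and take apart the cell during apoptosis. In the mitochondrial route, cytochrome c (CYCS) leaves the mitochondria and binds APAF1, which assembles into the apoptosome and activates caspase-9. In the death receptor route, ligand-bound receptors activate caspase-8, and both routes converge on executioner caspases. XIAP binds and inhibits active caspases, and DIABLO, also known as SMAC, is released with cytochrome c and relieves that inhibition. N6-methyladenosine (m6A) is a methyl mark on internal adenosines of RNA, which ALKBH5 removes.

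A375 is an established human melanoma line. The shALKBH5 cells carried a lentiviral short hairpin against ALKBH5, and the shCtrl cells, which the genotype label calls wild type, carried a control hairpin. The methods name several hairpins, and which of them was sequenced is not given in the labels, nor is whether the cells came from a clone. The methods give a harvest time after infection for RNA-Seq alone, so no time is set beside these libraries. Each group had 3 input libraries, which measure RNA level, and 3 IP libraries, made from fragments bound by an antibody against m6A. Levels are FPKM, the number of fragments scaled by transcript length and by library size, so that levels of different genes can be compared. Nothing in the labels says that the libraries of a group came from separate cultures, so the p-values measure the spread between these libraries, which may be technical.

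ALKBH5 itself stood at 3.39, 3.92 and 3.12 FPKM in the 3 shALKBH5 libraries and at 19.3, 17.8 and 17.6 FPKM in the 3 shCtrl libraries, a log2 fold change of -2.36 (SE 0.0887, adjusted p = 1.276e-06, limma). The groups did not overlap, and the direction fits the labels. Of 9 melanocyte lineage markers 8 were listed in the table given, and they summed to 267 to 271 FPKM in shALKBH5 and 216 to 226 FPKM in shCtrl libraries. SOX10 stood at 179 to 192 FPKM over the 6 libraries. S100B was at 79.0 to 85.1 FPKM in shALKBH5 and 31.5 to 34.2 FPKM in shCtrl libraries, and S100A1 at 4.07 to 4.82 and 1.67 to 2.06 FPKM. MITF was at 0.913 to 1.57 and 0.646 to 1.01 FPKM, and the pigment genes PMEL, TYR, TYRP1 and DCT were below 0.7 FPKM in each library. The part of these markers in the results was not tested. The summed level of 2 listed keratinocyte, 3 fibroblast and 3 endothelial markers was at most 1.08 FPKM per list in any library. Of 3 leukocyte markers CD68 alone was listed in the table given, at 38.1 to 41.9 FPKM in shALKBH5 and 14.8 to 17.2 FPKM in shCtrl libraries, and its part in the results was not tested. The dedifferentiation markers VIM, AXL and NGFR summed to 304 to 316 FPKM in shALKBH5 and 814 to 822 FPKM in shCtrl libraries, and their part in the results was not tested. Libraries of the same group correlated at 0.981 to 0.984 across genes, and libraries of different groups at 0.929 to 0.934.

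Of the 8 genes, 6 passed the test for a difference between the groups (75%), against 61% of the 12985 genes tested. XIAP, APAF1, CASP4 and CASP6 were lower in shALKBH5 cells, which is 4 of 8 genes against 26.2% of all tested genes. DIABLO and CASP8 were higher, which is 2 of 8 against 34.7%. CASP9 and CYCS did not pass the test. The same 6 genes had values that did not overlap between the groups, against 67% of all tested genes. The share of the 8 genes that passed was thus near that of all genes, and the sizes were too: their median absolute log2 fold change was 0.323, against 0.359 over all tested genes. Their median signed log2 fold change was -0.16, against 0.087. With 8 genes these shares are a description, and in a bulk sample less RNA per cell cannot be told apart from fewer cells that hold it.

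**Figure D1:**
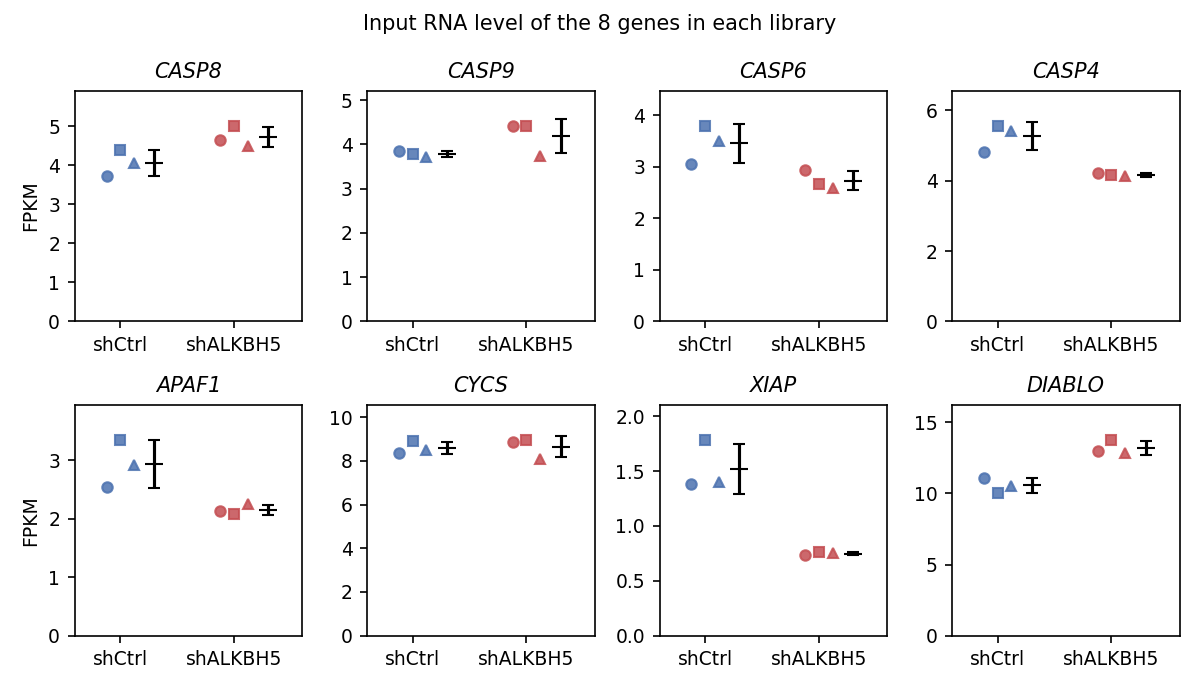
Input RNA level of each of the 8 genes in FPKM (vertical axes, starting at 0), with 1 point per library (circle, square and triangle for replicates 1, 2 and 3) and the mean ± SD of the 3 libraries beside them. XIAP lies between 0.735 and 0.762 FPKM in shALKBH5 and between 1.38 and 1.78 FPKM in shCtrl libraries, while the values of CASP9 and CYCS overlap between the groups.

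The starts of the transcripts are shown as places where listed m6A peaks of the 8 genes were present in 1 list or in both. RefSeq (GRCh38.p14) gives 16 start sites for the 8 genes. The first 50 bases after the start lay within a listed peak of both cell lists for 2 of these, of the shALKBH5 list alone for 1, of the shCtrl list alone for 4, and of neither list for 9. Over 13298 start windows of tested genes the shares were 19.8% in both lists, 7.29% in the shALKBH5 list alone, 7.17% in the shCtrl list alone and 65.7% in neither. The 16 windows share genes and, in XIAP, a peak, and nothing particular to the 8 genes is read from these counts. Up to 30 bases are printed 5′ to 3′ on the transcribed strand, with capitals marking a match to the m6A consensus, searched as 18 pentamers that read A, G or T, then A or G, then AC, then A, C or T. Such a pentamer was found in 49.6% of 35116 RefSeq start windows on the transcribed strand and in 50.6% on the other strand, so a match is a description and not a site.
CASP9 in both lists (chr1:15524741-15524770, minus strand): gcggtgacgcggtggcaggttctggGGACA
CASP4 in both lists (chr11:104968526-104968555, minus strand): cgctgtaaaaaaGGACAgaggctgttccct
APAF1 in the shALKBH5 list alone (chr12:98645310-98645339, plus strand): agcgagtggacgTGACTgctctatcccggg
CYCS in the shCtrl list alone (chr7:25125231-25125260, minus strand): agagagtggggacgtccggcttcggagcgg
XIAP in the shCtrl list alone (chrX:123860054-123860083, plus strand): aggccctgacgtGGACAcacttcgggtttc
XIAP, another start, in the shCtrl list alone (chrX:123859834-123859863, plus strand): cggggaggtggcgGGACCttggcggcgccc
The remaining window in the shCtrl list alone was a CASP8 start with no match on the transcribed strand. The CYCS window held no match on that strand either.

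Among the initiator caspases, CASP8 (ENSG00000064012, chr2:201233443-201287711), which acts after death receptors, was measured at 4.66, 5.02 and 4.51 FPKM in shALKBH5 libraries and at 3.74, 4.39 and 4.06 FPKM in shCtrl libraries. Each shALKBH5 value was above each shCtrl value, with the lowest of the former close to the highest of the latter. This gave a log2 fold change of 0.22 (SE 0.0790, 95% interval 0.03 to 0.40, adjusted p = 0.04642, limma), 1.16-fold by the means. This call sat at the threshold and was lost in 9 of 13 alternatives, with adjusted p between 0.02166 and 0.1504. It was lost without shALKBH5 replicate 1 (adjusted p = 0.09376), 2 (0.1504) or 3 (0.06175), and without shCtrl replicate 1 (0.1095) or 3 (0.104).

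CASP9 (ENSG00000132906, chr1:15490832-15526534), the initiator that the apoptosome activates, was at 4.42, 4.42 and 3.75 FPKM in shALKBH5 and at 3.85, 3.77 and 3.72 FPKM in shCtrl libraries. Replicates 1 and 2 of shALKBH5 lay above all shCtrl values and replicate 3 lay among them, so the groups overlapped. The difference, a log2 fold change of 0.14 (SE 0.0799, 95% interval -0.05 to 0.33), did not pass (adjusted p = 0.1615, limma). Without shALKBH5 replicate 3 it was 0.22 (adjusted p = 0.03909).

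CASP6 (ENSG00000138794, chr4:109688622-109703583), an executioner caspase that cleaves nuclear lamins, was at 2.94, 2.66 and 2.58 FPKM in shALKBH5 and at 3.05, 3.79 and 3.50 FPKM in shCtrl libraries. The groups did not overlap, although shALKBH5 replicate 1 and shCtrl replicate 1 lay close together. The log2 fold change was -0.33 (SE 0.0978, 95% interval -0.56 to -0.10, adjusted p = 0.02223, limma), 1.27-fold by the means. The call was lost in 6 of 13 alternatives. These were leaving out shALKBH5 replicate 2 (adjusted p = 0.06609) or 3 (0.07417) or shCtrl replicate 2 (0.05717) or 3 (0.06625), no filter (0.05363) and the replicate block (0.05398). MCUB lies over CASP6 on the other strand and was listed at up to 2.66 FPKM. Whether counting used strand is not given in the sources used here, so reads of the pair may be shared.

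CASP4 (ENSG00000196954, chr11:104942866-104969366), an inflammatory caspase that senses bacterial lipopolysaccharide and triggers pyroptosis, was at 4.24, 4.17 and 4.13 FPKM in shALKBH5 libraries. In shCtrl libraries it was at 4.83, 5.57 and 5.42 FPKM, each above every shALKBH5 value. The log2 fold change was -0.33 (SE 0.0697, 95% interval -0.49 to -0.16, adjusted p = 0.005003, limma), 1.26-fold by the means. CASP4 kept its call and direction in the 13 alternatives, with log2 fold changes from -0.40 to -0.28.

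Of the apoptosome components, APAF1 (ENSG00000120868, chr12:98645290-98735433), the scaffold, was at 2.13, 2.08 and 2.25 FPKM in shALKBH5 and at 2.54, 3.35 and 2.92 FPKM in shCtrl libraries. The groups did not overlap, and the shCtrl libraries were spread more widely (SD 0.406, against 0.0846). The log2 fold change was -0.42 (SE 0.108, 95% interval -0.67 to -0.17, adjusted p = 0.01139, limma), and it passed in all 13 alternatives, from -0.52 to -0.31. ANKS1B overlaps APAF1 on the other strand and was listed at up to 0.0432 FPKM.

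CYCS (ENSG00000172115, chr7:25118656-25125260), which encodes cytochrome c, was at 8.88, 8.96 and 8.09 FPKM in shALKBH5 and at 8.36, 8.92 and 8.52 FPKM in shCtrl libraries. The groups lay across one another. Their log2 fold change was 0.01 (SE 0.0591), with a 95% interval of -0.13 to 0.14 and an adjusted p of 0.9382 (limma), and its sign turned in 5 of 13 alternatives. The table also listed 8 CYCS pseudogenes, the highest of them CYCSP6 at up to 1.44 FPKM, and reads may be divided between these copies and the gene.

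XIAP (ENSG00000101966, chrX:123859724-123913976), the caspase inhibitor, was at 0.735, 0.762 and 0.749 FPKM in shALKBH5 libraries. In shCtrl libraries it was at 1.38, 1.78 and 1.40 FPKM, so that every control value was well above the 3 closely spaced shALKBH5 values. The log2 fold change was -0.93 (SE 0.130, 95% interval -1.23 to -0.62, adjusted p = 0.000618, limma), 2.03-fold lower by the means. The size was at the 85.7 percentile of absolute changes over all tested genes, and that of the other 7 genes was between the 0.97 and 56.3 percentiles. XIAP passed in all 13 alternatives, but its log2 fold change was -0.52 with a pseudocount of 1 FPKM, which is of the order of its level. A listed XIAP pseudogene, XIAPP1, was at up to 0.165 FPKM.

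DIABLO (ENSG00000184047, chr12:122207663-122227456), the mitochondrial XIAP antagonist, moved the other way. It was at 13.0, 13.8 and 12.8 FPKM in shALKBH5 and at 11.1, 10.0 and 10.5 FPKM in shCtrl libraries, with no overlap. Its log2 fold change was 0.32 (SE 0.0557, 95% interval 0.19 to 0.45, adjusted p = 0.001857, limma), 1.25-fold by the means, and it passed in all 13 alternatives. A pair of unnamed genes overlaps DIABLO on the same strand, listed at up to 0.148 and 0.563 FPKM, and B3GNT4 overlaps it on the other strand at up to 0.148 FPKM.

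**Figure D2:**
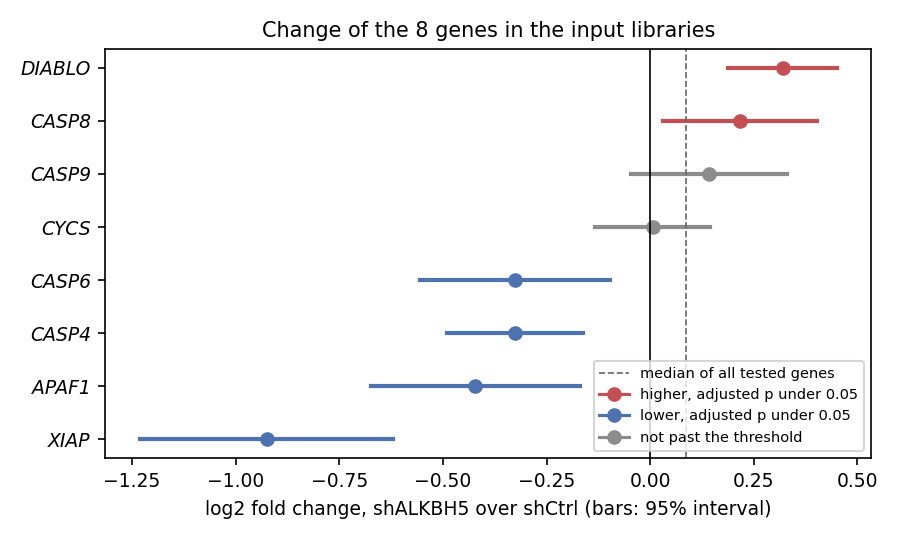
Log2 fold change of each of the 8 genes, shALKBH5 over shCtrl input libraries (horizontal axis), with the 95% interval from limma as bars and the median of all tested genes (0.087) as a dashed line. The XIAP interval, -1.23 to -0.62, lies below those of the 2 genes that were higher, DIABLO and CASP8, while the intervals of CASP9 and CYCS include 0.

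In order of level, DIABLO was highest and CYCS next in both groups, and XIAP was lowest in both. In shCtrl cells CASP4 followed at 5.27 ± 0.392 FPKM (SD, n = 3), and after it CASP8, CASP9, CASP6 and APAF1, where each overlapped its neighbour in the order. In shALKBH5 cells CASP8 (4.73 ± 0.263) followed CYCS in place of CASP4, then CASP9 (4.20 ± 0.388) and CASP4 (4.18 ± 0.0551), which overlapped, and then CASP6 and APAF1 without overlap. In each library XIAP stood lower than the caspase it inhibits in the apoptosome, CASP9.

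Ratios between the genes were taken within each library, where the library scale cancels. The ratio of XIAP to DIABLO was 0.0566, 0.0554 and 0.0584 in shALKBH5 and 0.124, 0.178 and 0.133 in shCtrl libraries. This is a log2 difference of -1.34, and its direction follows from the levels of the 2 genes, since XIAP was lower and DIABLO higher without overlap. XIAP to CASP9 was 0.180 ± 0.0179 in shALKBH5 and 0.403 ± 0.0615 in shCtrl (SD, n = 3 each), a log2 difference of -1.16. APAF1 to CASP9 was 0.518 ± 0.0713 and 0.777 ± 0.114, a log2 difference of -0.58. CYCS to APAF1 was 4.02 ± 0.374 and 2.96 ± 0.317, a log2 difference of 0.44. None of the 4 ratios overlapped between the groups. Each had an exact two-sided permutation p of 0.1, the smallest that 3 libraries against 3 allow, and 0.1 after Benjamini-Hochberg adjustment over the 4, so none could pass the threshold.

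**Figure D3:**
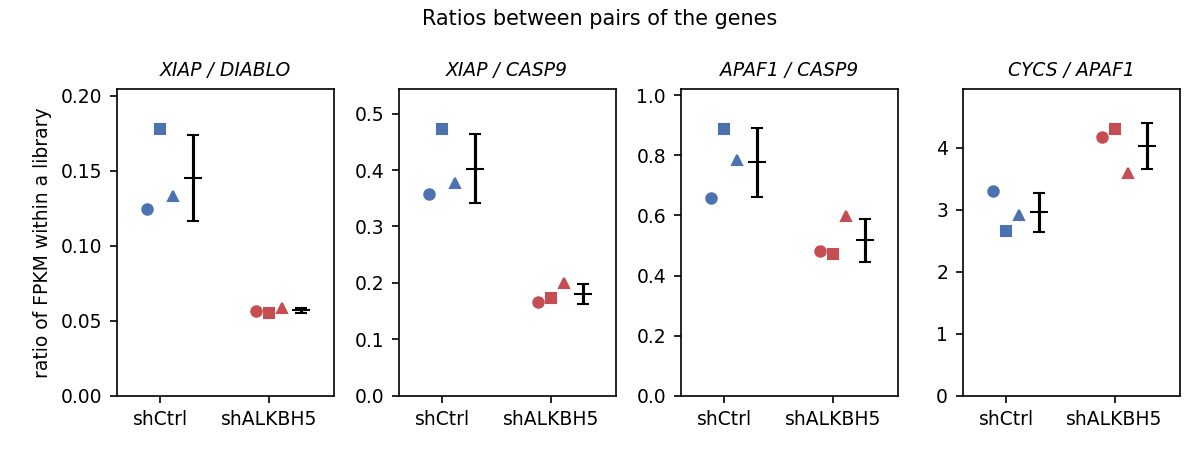
Ratio of FPKM between 4 pairs of the genes within a library (vertical axes, starting at 0), with 1 point per library (circle, square and triangle for replicates 1, 2 and 3) and the mean ± SD beside them. XIAP to DIABLO lies between 0.0554 and 0.0584 in shALKBH5 and between 0.124 and 0.178 in shCtrl libraries, and the groups do not overlap in any of the 4 panels.

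Among the 8 genes and the tested genes of the lists below, the gene whose pattern over the 6 libraries was closest to each member was sought by the root mean square difference of centred log2 levels. XIAP was closest to DFFA, the inhibitor of the caspase-activated DNase, at 0.121, the largest such distance of the 8. CASP6 was closest to CASP4 (0.0534), APAF1 to CASP4 (0.0839), and CASP4 to the caspase substrate PARP1 (0.0478). CASP8 (0.0596) and CASP9 (0.0792) were both closest to the TRAIL receptor gene TNFRSF10A. DIABLO was closest to the mitochondrial co-chaperonin gene HSPE1 (0.0532), and CYCS to ACIN1 (0.0480). All are distances between log2 levels over 6 libraries, sought among 45 other genes, and no test was made.

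The other genes of the pathway were taken as 5 lists of 52 genes, of which 44 were in the table given, 38 were tested and 26 passed (14 higher and 12 lower in shALKBH5 cells), or 68.4% against 61% of all tested genes. Of the 2 caspases tested in the list of further caspases, CASP2 passed. This caspase, activated on the PIDD1 platform, was at 4.73, 4.88 and 4.59 FPKM in shALKBH5 and at 7.37, 6.75 and 7.24 FPKM in shCtrl libraries, with no overlap. Its log2 fold change was -0.58 (SE 0.0591, adjusted p = 0.0001221, limma), the direction of CASP4 and CASP6. CASP10, a relative of CASP8, was at 0.791 FPKM in shALKBH5 and 0.711 FPKM in shCtrl cells on average and did not pass.

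The 4 tested genes of the family of XIAP passed (100%, against 61% of all tested genes), BIRC6 among them with a call that was lost in 6 of 13 alternatives. Of the 4, 3 were higher (34.7% of all tested genes) and 1 was lower (26.2%). BIRC5 (survivin, which acts in mitosis) was lower, at 5.26 ± 0.275 FPKM in shALKBH5 and 21.0 ± 1.21 FPKM in shCtrl libraries, a log2 fold change of -1.98. The 3 others were higher: BIRC2 (log2 fold change 0.77, SE 0.110) and BIRC3 (1.42, SE 0.220), ubiquitin ligases of TNF receptor signalling, and BIRC6 (0.52, SE 0.165, adjusted p = 0.02768, limma), whose groups overlapped. BIRC6 did not pass with no filter (adjusted p = 0.08253) or the replicate block (0.05262), without shALKBH5 replicate 1 (0.0839) or 3 (0.08002), or without shCtrl replicate 1 (0.07395) or 3 (0.07971). BIRC3 was at 0.361 FPKM in shCtrl cells on average, and its log2 fold change was 0.63 with a pseudocount of 1 FPKM. BIRC2 and BIRC3 thus lay on the other side from XIAP and BIRC5.

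Of 8 tested antagonists and apoptosome regulators 6 passed (75%, against 61% of all tested genes), and 5 of these were higher (34.7% of all tested genes). They were HCCS (log2 fold change 0.60), which attaches heme to cytochrome c, the mitochondrial nuclease ENDOG (0.55), the mitochondrial chaperonin genes HSPD1 (0.40) and HSPE1 (0.39), and the mitochondrial flavoprotein gene AIFM1 (0.34). AVEN, which binds APAF1, was lower (-0.20, adjusted p = 0.04384, limma), but did not pass in 7 of 13 alternatives. These were no filter (0.06209), the replicate block (0.1085) and leaving out shALKBH5 replicate 2 (0.108) or 3 (0.1484) or shCtrl replicate 1 (0.05163), 2 (0.08151) or 3 (0.1223). HTRA2, another mitochondrial antagonist of XIAP, did not pass, at 16.4 ± 1.09 against 16.7 ± 1.85 FPKM (SD, n = 3 each). Of the 12 tested death receptor and adaptor genes, 6 passed (50%, against 61% of all tested genes). Of these, 5 were higher (34.7% of all tested genes) and 1 was lower (26.2%). TNFRSF21 was lower, at 9.52 ± 0.636 against 54.7 ± 0.573 FPKM, a log2 fold change of -2.51. The adaptor gene CRADD (0.52) and the receptor genes TNFRSF10B (0.47), TNFRSF25 (0.28), TNFRSF1A (0.23) and TNFRSF10A (0.18) were higher. After rescaling by the median ratio TNFRSF25, TNFRSF1A and TNFRSF10A no longer passed and the adaptor gene TRADD did as lower, which left 2 higher and 2 lower. TNFRSF25 also failed without any 1 of the shALKBH5 libraries 1 (adjusted p = 0.1176), 2 (0.117) and 3 (0.08559) or shCtrl libraries 1 (0.06278) and 2 (0.09165), with no filter (0.07085) and with the replicate block (0.1036). TNFRSF10A failed likewise without shALKBH5 library 1 (0.1446), 2 (0.1091) or 3 (0.05934) or shCtrl library 1 (0.09975) or 3 (0.1412), with no filter (0.07794), with the replicate block (0.07656) and without the trend (0.06032). Further receptor and adaptor genes passed when 1 library was left out: FAS without shCtrl library 2 (0.02849), TNFRSF10C without shCtrl library 3 (0.005829), TRADD without shALKBH5 library 3 (0.005403), and PIDD1 (0.02861) and FADD (0.03605) without shCtrl library 1. FADD, which joins the receptors to caspase-8, did not pass with all 6 libraries, at 49.0 ± 0.951 against 46.6 ± 3.26 FPKM.

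Of 12 tested caspase substrates and effectors 9 passed (75%, against 61% of all tested genes), 8 of them lower (26.2% of all tested genes). LMNB1 and LMNA encode nuclear lamins and had log2 fold changes of -2.50 and -1.18. PANX1, a membrane channel opened by caspase cleavage, had -2.17, and DFFA had -0.93. Lower values were also found for GSN (-0.76), GSDME (-0.74), BID (-0.31) and PARP1 (-0.28). DFFB, the nuclease that DFFA holds inactive, was higher (0.47, SE 0.109, adjusted p = 0.00729, limma). ROCK1, a kinase cleaved by caspases, passed as lower only after rescaling (adjusted p = 0.04002) and without shCtrl replicate 3 (0.02328). The medians of the lists were -0.23 for the 2 caspases, 0.645 for the XIAP family, 0.365 for antagonists and regulators, 0.198 for receptors and adaptors and -0.659 for substrates, beside 0.087 for all tested genes. These lists were chosen with earlier results of these data known, and their counts are a description.

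**Figure D4:**
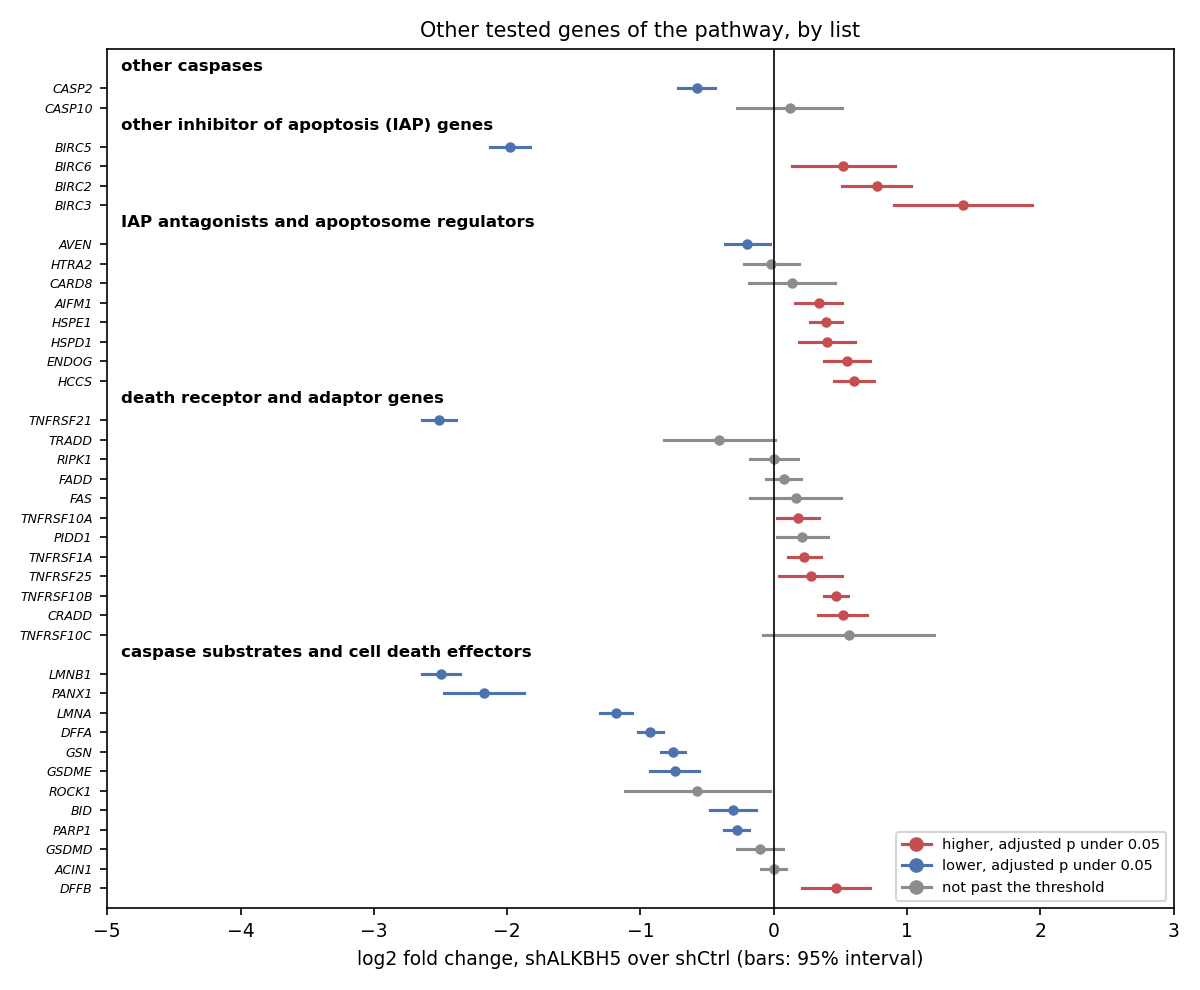
Log2 fold change, shALKBH5 over shCtrl input libraries (horizontal axis), of the 38 tested genes of the 5 lists, with 95% intervals from limma as bars. TNFRSF21 (-2.51), LMNB1 (-2.50) and PANX1 (-2.17) lie farthest to the left, and BIRC3 (1.42, but 0.63 with a pseudocount of 1 FPKM) farthest to the right.

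The authors listed m6A peaks once for each group. Each peak has its enrichment, the IP signal divided by the input signal, and no value per library, so the peak values below have no replicate error and no test. A span runs over the genome and includes introns. All 8 genes had a peak in both lists, as had 82.6% of the tested genes. In the shALKBH5 list 14 of the 24 peaks (58.3%) were annotated to the 3'UTR, against 45.5% of all peaks, and in the shCtrl list 10 of 23 (43.5%), against 46.2%. The 5'UTR held 7 of 24 (29.2%, all peaks 16.6%) and 8 of 23 (34.8%, all peaks 17%). The median fold enrichment of the members' peaks was 3.95 in the shALKBH5 and 4.47 in the shCtrl list, below the 5.31 and 5.25 of all peaks.

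Of the 24 peaks in the shALKBH5 list 19 overlapped a peak of the shCtrl list by at least 1 base on the same strand (79.2%, exact binomial 95% interval 57.8 to 92.9, covering counting error alone), against 78.1% of all peaks. From the shCtrl side it was 19 of 23 (82.6%, interval 61.2 to 95), against 81.3%. With a reciprocal overlap of 50% this was 9 peaks on each side, 37.5% and 39.1%, against 51.6% and 53.7% of all peaks, so many of the shared peaks differed in extent. With peaks of at least 2-fold and a false discovery rate of at most 0.01 in both lists it was 16 of 17 (94.1%, against 82.1%) and 15 of 17 (88.2%, against 83.6%). XIAP held most of the peaks without a partner, 4 in the shALKBH5 and 2 in the shCtrl list. The enrichment differed by more than 2-fold in 7 of the 19 pairs, against 20.9% of all 35618 pairs. It was lower in the shALKBH5 list in 6 of the 7 and higher in 1, and lower was also the more frequent direction over all pairs past 2-fold (4436 lower and 2992 higher of 7428).

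CASP8 carried 6 peaks in each list and its enrichment was lower in the shALKBH5 list in all 6 pairs. The peak in the 3'UTR had an enrichment of 4.90 over chr2:201277844-201286544 in the shALKBH5 list and 6.96 over chr2:201281874-201286544 in the shCtrl list. Upstream, the shCtrl list had 1 peak over chr2:201258252-201272805 with an enrichment of 18.5, where the shALKBH5 list had 2, of 2.31 over 240 bases and 3.67 over 10616 bases. This shCtrl peak thus enters 2 of the 6 pairs, and the shALKBH5 peak of 2.31 overlapped it by 31 bases only. Closest to the gene start, a shALKBH5 peak of 7.57 over 7205 bases, annotated to the 5'UTR, was paired with a shCtrl peak of 11.0. That shCtrl peak covered 839 bases, was annotated to an intron and began 6849 bases from the gene start. The next pair, intronic in both lists, stood at 4.59 against 17.0, and an exonic pair at 2.86 against 8.94. The enrichment is divided by the input signal, and the CASP8 input level, whose call was lost in 9 of 13 alternatives, was 1.16-fold higher in shALKBH5 cells. The part of the input level in these enrichment values was not tested. A CASP8 peak of 4.26 in the shCtrl list had no partner.

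CASP9 had 3 peaks in each list, and 2 of the 3 pairs nearly coincided, while a 3'UTR pair that began at the same base ran over 1108 bases in the shALKBH5 and 420 bases in the shCtrl list. Its 5'UTR peak, which holds the start printed above, had an enrichment of 40.4 in the shALKBH5 and 46.0 in the shCtrl list, at the 99.1 and 99.3 percentiles of enrichment over all peaks. The pair of 3'UTR peaks stood at 2.59 and 3.57 in the shALKBH5 and at 2.42 and 3.12 in the shCtrl list. The authors' score (log10 p) was weaker for the 5'UTR peak, at -10.2 and -11.5, than for the 3'UTR peak of 3.57 and 3.12, at -115 and -81.1. None of the CASP9 pairs differed by 2-fold. CASP4 had a 3'UTR peak of 1.65 against 2.02 and a 5'UTR peak of 3.27 against 2.39, again within 2-fold. The latter ran over 17337 bases in the shALKBH5 and 16517 bases in the shCtrl list. It reached the gene start in the authors' coordinates (chr11:104969366) in the shALKBH5 list and ended 790 bases short of it in the shCtrl list. The RefSeq start of the window printed above, chr11:104968574, is a different base and lay within the peak of both lists.

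CASP6 was the only one of the 8 genes with no overlapping pair. The shALKBH5 list had a 3'UTR peak over chr4:109688622-109688861 with an enrichment of 4.90, and the shCtrl list a 5'UTR peak of 61 bases with 1.54. Neither reached a fold of 2 together with a false discovery rate of 0.01 in the authors' columns. APAF1 had a single peak per list at the start of the gene. In the shALKBH5 list it ran over chr12:98645290-98645590, with an enrichment of 3.23 and the TGACT printed above, and in the shCtrl list over the last 61 bases of that span, with 1.84.

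CYCS had 2 peaks in each list. One stood at 4.90 in the shALKBH5 and 3.92 in the shCtrl list. The other began at the same base in both lists, with 3.13 over 1201 bases in the shALKBH5 list and 12.8 over 1621 bases in the shCtrl list, where it reached the start of the gene. CYCS is thus a gene whose RNA level overlapped between the groups while the listed enrichment of this peak was 4.09-fold lower in shALKBH5 cells.

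XIAP had 6 peaks in the shALKBH5 and 5 in the shCtrl list, of which 2 and 3 reached a fold of 2 and a false discovery rate of 0.01. Within the 3'UTR, 1619 and 1649 bases before the end of the gene, an overlapping pair stood at 4.23 over 211 bases in the shALKBH5 list and at 2.03 over 61 bases in the shCtrl list, the pair that was more than 2-fold higher in shALKBH5 cells. The shALKBH5 list had 3 more 3'UTR peaks, of 2.94, 6.12 and 9.80 over 91 to 151 bases, none of which reached a false discovery rate of 0.01. At the other end, the shCtrl list had a peak of 5.11 over chrX:123859724-123860111, which holds both XIAP starts printed above and overlapped no peak of the shALKBH5 list. A long shALKBH5 peak of 7.96 over 25925 bases began downstream of it and covered the shCtrl peak of 6.02 over 600 bases of an exon. It also overlapped a shCtrl peak of 4.47 over 91 bases. An exonic peak in each list, of 1.82 in the shALKBH5 and 1.36 in the shCtrl list, had no partner.

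DIABLO had 3 peaks in each list, all annotated to the 3'UTR and overlapping each other. In each list 2 of them begin at bases other than the end of DIABLO. In order of their first base, the shALKBH5 peaks ran over 893, 901 and 777 bases. The shCtrl peaks ran over 8863, 2145 and 8747 bases. Each of the 3 shALKBH5 peaks, of 4.42, 4.24 and 1.51, was closest in extent to the same shCtrl peak of 5.22. Set against the shCtrl peak that shares its first base, the values were 4.42 and 5.17, 4.24 and 5.22, and 1.51 and 1.73. All 3 were lower in the shALKBH5 list by either pairing, but by the latter none differed by 2-fold and the count of pairs past 2-fold was 6 of 19. The authors' own table of differential peaks holds 6513 entries, of which 7 belong to these genes: 1 in APAF1, 2 in CASP8 and 4 in DIABLO. Only their positions were read.

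**Figure D5:**
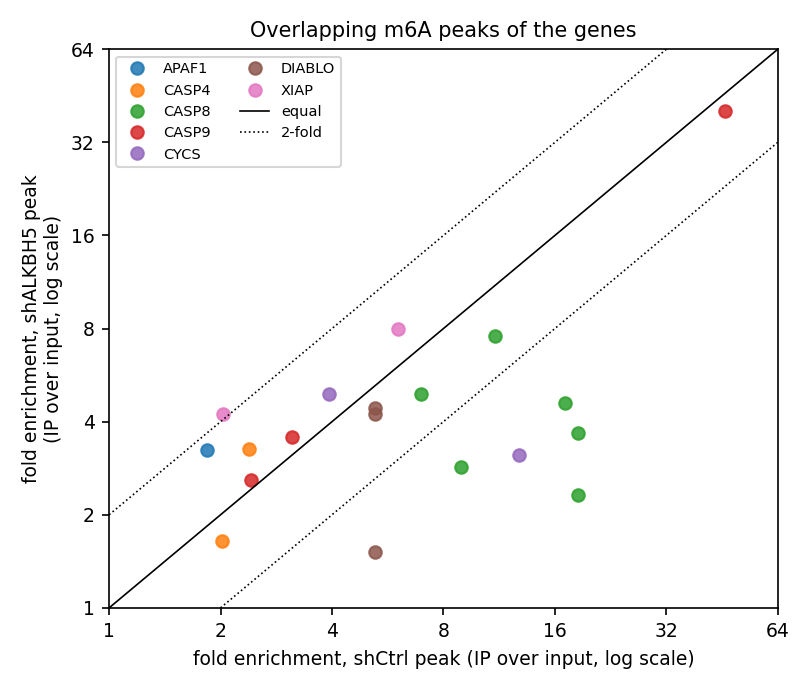
Fold enrichment (IP over input, log2-spaced axes) of the 19 overlapping peak pairs, with the shCtrl list on the horizontal and the shALKBH5 list on the vertical axis. All 6 CASP8 pairs, of which 2 share a shCtrl peak, lie below the line of equality. The CASP9 5'UTR pair lies near that line at 46.0 and 40.4, and 1 XIAP pair (2.03 and 4.23) lies above the dotted 2-fold line.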

How the data were processed

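Input and IP libraries of shALKBH5 and shCtrl A375 cells (3 each) were grouped by their titles. The authors deposited FPKM per input library, 1 list of peaks for each group holding an IP over input ratio (fold enrichment), and p and FDR columns on a log10 scale that were treated as a score. The aligner, counter and peak caller, strand use and the pooling of libraries are not given in the sources used here. The authors' own fold changes, p-values and FDR between groups, in the expression table and the table of differential peaks, were not used. The labels name a mouse build. However, 66.3% of 21699 genes matched by symbol share a start or end with GRCh38.p14, and coordinates are given as that build, counted from 1.

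FPKM showed no steps of whole reads, so the depth is unknown, and the 3 libraries per group limit the precision. Genes averaging 0.5 FPKM or more in the 6 input libraries were tested with limma 3.58.1 in R 4.3.3 (lmFit, eBayes with trend, two-sided) on log2(FPKM + 0.1). This scale understates the change of low genes. Benjamini-Hochberg adjustment ran over all 12985 tested genes, with a threshold of 0.05. Ratios were compared by exact permutation tests (scipy 1.17.1, Python 3.11.15). The test was checked on simulated data. Peaks were paired by an overlap of at least 1 base on the same strand, taking the partner closest in extent.

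The members and lists were chosen with earlier results of these data known. All 8 genes were named, with each list gene that passed, or the 4 of largest absolute change where more did, and the gene closest to each member. TNFRSF1A, AIFM1, AVEN, GSN, GSDME, BID and DFFB passed outside that rule and were named after their values were seen, as were CASP10, HTRA2, FADD, TRADD, FAS, TNFRSF10C, PIDD1 and ROCK1, which did not pass. Below the filter were CASP1, BIRC7, NAIP, SEPTIN4, XAF1 and CFLAR. CASP5, CASP12, CASP14, BIRC8, FASLG, TNFSF10, TNFRSF10D and XKR8 were not analysed here. Some items of the pathway are not reported here, and the list counts leave them out. The alternatives were other pseudocounts and filters, rescaling by the median ratio, a replicate block, no trend, leaving out each library, stricter peaks and overlaps. A pairing of peaks by their first base was added after seeing the data.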

Additional observations from a re-analysis of the deposited data

How the results depend on the processing

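XIAP, DIABLO, CASP4, APAF1 and ALKBH5 kept their direction and stayed past the threshold in each of 13 alternatives. CASP8 did not pass with no filter (0.22, adjusted p = 0.08787, limma), after rescaling by the median ratio (0.14, 0.1337), with the replicate block (0.22, 0.057) or without the trend (0.22, 0.05635), and its log2 fold change ranged from 0.16 to 0.27 when 1 library was left out. CASP6 did not pass with no filter (-0.33, adjusted p = 0.05363) or with the replicate block (-0.33, 0.05398), and ranged from -0.41 to -0.26 when 1 library was left out. CASP9 was at 0.068 after rescaling (adjusted p = 0.491, limma) and ranged from 0.10 to 0.22 when 1 library was left out. It passed only without shALKBH5 replicate 3. CYCS turned sign after rescaling (-0.069) and ranged from -0.021 to 0.052 when 1 library was left out, with the values -0.014 (without shALKBH5 replicate 1), -0.021 (without shALKBH5 replicate 2), -0.014 (without shCtrl replicate 1) and -0.0002 (without shCtrl replicate 3). The cause of these changes was not tested. The count of the 8 genes past the threshold was 4 to 5 with 1 library left out. In the list of further caspases 1 gene passed, and 2 did with no filter, which let genes of low level into the test.

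Rescaling moved the median log2 fold change of all genes from 0.087 to 0.015, and the share of calls that were higher from 57% to 49.3%. No pairing by replicate number was visible, since the deviations of same-numbered libraries correlated at 0.018, -0.046 and 0.059. Those of differently numbered libraries correlated at -0.062 to 0.044. Whether libraries of the same number were handled together is not given in the labels. With the replicate block 4 of the 8 genes passed, and 7271 of all genes. The members' peaks shared between the lists fell from 19 to 9 on each side with a reciprocal overlap of 50%, where 3 of 9 pairs were past 2-fold, all lower, against 3364 of 23667 pairs over all genes (1739 lower and 1625 higher). The median log2 ratio of the pairs was -0.29 in both cases, against -0.064 and -0.051 over all pairs, and -0.23 when peaks were paired by their first base, against -0.063. No depth or value per IP library was available to this comparison of peaks.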
